A study of Mus musculus with 12 samples.

Results

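The genes described are 10 listed members of the later granule programme of mouse neutrophils, out of 21853 genes in the deposited table: Ltf, Camp, Lcn2, Chil3, Mmp8, Mmp9, Cd177, Fcnb, Itgb2l and Hp. They were chosen by name, with earlier results of these data known, and all 10 were found by symbol. All 10 were among the 10994 genes kept for testing, which needed 3 or more of the 12 libraries to reach 1 FPKM. FPKM counts a gene's fragments relative to its transcript length and to the library's mapped fragments, so levels can be compared between genes per length. None of the 10 had a value of exactly 0 in any library, whereas the neutrophil genes Ngp, S100a8 and S100a9 did, in 5, 2 and 4 libraries, beside values of at least 13843 FPKM elsewhere.

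Neutrophils load their granules in order of maturation. Promyelocytes make the primary granules, with myeloperoxidase and serine proteases. Myelocytes and metamyelocytes then make the secondary granules, with lactoferrin, cathelicidin and lipocalin, and band cells make the tertiary granules, rich in gelatinase. The transcription factor C/EBP epsilon, encoded by Cebpe, is required for the secondary granule programme, and the marrow holds most of the cells that transcribe it.

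Whole bone marrow of B6 mice was taken 14 days after irradiation in 4 groups of 3 libraries. Control mice were not irradiated, and no vehicle is stated for them. TBI mice received 5 Gy of total body irradiation with gamma rays at 0.66 Gy per min and then 100 µL of olive oil, the vehicle, by mouth. TBI+DEIX mice were irradiated and given DEIX by mouth at 25 mg per kg once a day for 14 days, and DEIX mice received DEIX without irradiation. The series title names the treatment as deinoxanthin, a carotenoid of Deinococcus bacteria. Age and sex of the mice are not given in the sources used here, and nothing says whether 1 library is 1 mouse, so p-values measure only the spread between these libraries. In whole marrow, fewer cells of a type and less RNA per cell cannot be told apart.

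Summed FPKM ran from 493700 to 848800 per library. Read totals are unknown, but steps in low values put the worth of 1 read, relative to control replicate 1, between 0.892 and 1.89 in the other libraries except TBI+DEIX replicate 1, where the best value beat the next by a ratio of only 1.07. That library stood apart in the granule genes too, and results are given with and without it. It was picked out after the members' values were seen, so calls made without it are not independent support. The spread within TBI+DEIX was the widest: the root mean square of the members' SD of log2(FPKM + 1) was 0.544 there, against 0.164 in control, 0.197 in TBI and 0.339 in DEIX. The neutrophil markers Lyz2 and Ly6g were detected in every library of the marrow samples.

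The members lie on 6 autosomes in the GENCODE vM21 annotation of GRCm38 (mm10). On chromosome 9 are Mmp8 (7558456 to 7568485, plus strand), Camp (109847379 to 109849617, minus strand) and Ltf (111019271 to 111042767, plus strand). On chromosome 2 are Fcnb (28076378 to 28084885, minus strand), Lcn2 (32384633 to 32388252, minus strand) and Mmp9 (164940780 to 164955850, plus strand). The others are Chil3 on chromosome 3 (106147554 to 106167564, minus strand), Cd177 on chromosome 7 (24743983 to 24760311, minus strand), Hp on chromosome 8 (109575128 to 109579172, minus strand) and Itgb2l on chromosome 16 (96422288 to 96443619, minus strand). All are annotated as protein-coding. Chil3 has a close copy, Chil4, listed at no more than 0.108 FPKM, and the handling of reads that fit both is not stated in the sources used here. Itgb2l overlaps Igsf5 on the opposite strand, which was listed at no more than 0.0551 FPKM.

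Promoter sequences, from 250 bases before to 50 bases after the start of the gene, were taken from RefSeq on GRCm38.p6, which matched 8 of the 10 members (all but Mmp9 and Hp). The start used can differ from the GENCODE bounds above, and for Camp and Lcn2 it lies inside them. The Lcn2 window (32387690 to 32387989) falls wholly within the gene as printed above. Shown are the promoters of Ltf and Cd177, which rose in TBI+DEIX against control, of Camp and Fcnb, which were low in TBI+DEIX replicate 1, and of Chil3, which was highest there. Capitals mark matches on either strand to a C/EBP motif (TTNNGCAA), an ETS motif (GGAAGT) or a TATA box (TATAAA). No 2 marked matches in these 5 sequences overlap. Each sequence reads 5′ to 3′ on the strand of its gene, and lies at chr9:111019042-111019341 (plus strand), chr7:24760262-24760561 (minus strand), chr9:109849407-109849706 (minus strand), chr2:28084829-28085128 (minus strand) and chr3:106167515-106167814 (minus strand), in the order printed.
Ltf: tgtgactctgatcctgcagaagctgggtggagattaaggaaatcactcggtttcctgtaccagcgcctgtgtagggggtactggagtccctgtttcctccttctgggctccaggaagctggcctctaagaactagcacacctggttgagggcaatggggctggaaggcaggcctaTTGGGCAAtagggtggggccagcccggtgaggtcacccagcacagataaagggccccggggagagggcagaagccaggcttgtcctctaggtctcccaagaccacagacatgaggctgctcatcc
Cd177: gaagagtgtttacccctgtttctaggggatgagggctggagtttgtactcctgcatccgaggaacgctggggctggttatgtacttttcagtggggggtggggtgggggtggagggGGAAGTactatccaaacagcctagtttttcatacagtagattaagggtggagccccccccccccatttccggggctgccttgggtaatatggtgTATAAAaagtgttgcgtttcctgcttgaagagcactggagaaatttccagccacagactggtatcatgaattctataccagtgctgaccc
Camp: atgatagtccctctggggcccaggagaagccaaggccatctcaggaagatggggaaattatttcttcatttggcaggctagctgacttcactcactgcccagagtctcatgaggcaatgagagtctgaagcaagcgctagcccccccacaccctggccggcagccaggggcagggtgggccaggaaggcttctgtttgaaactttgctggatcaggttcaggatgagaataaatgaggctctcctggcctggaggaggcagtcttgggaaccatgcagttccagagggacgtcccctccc
Fcnb: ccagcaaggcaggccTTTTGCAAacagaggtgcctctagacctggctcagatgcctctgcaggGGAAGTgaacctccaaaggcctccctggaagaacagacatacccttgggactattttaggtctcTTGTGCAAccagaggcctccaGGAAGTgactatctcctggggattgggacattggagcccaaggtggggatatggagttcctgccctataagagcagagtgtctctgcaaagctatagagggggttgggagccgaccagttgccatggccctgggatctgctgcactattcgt
Chil3: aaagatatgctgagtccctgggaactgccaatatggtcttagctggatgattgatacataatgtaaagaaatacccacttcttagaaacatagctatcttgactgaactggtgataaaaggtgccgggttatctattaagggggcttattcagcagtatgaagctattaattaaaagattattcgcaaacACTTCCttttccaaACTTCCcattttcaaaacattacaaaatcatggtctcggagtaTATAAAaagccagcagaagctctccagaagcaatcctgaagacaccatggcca

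The C/EBP motif matched in 4 of the 8 member promoters (Ltf, Lcn2, Mmp8 and Fcnb), against 10.8% of 32851 promoters in the table. The ETS motif matched in 5 of 8 (Chil3, Mmp8, Cd177, Fcnb and Itgb2l), against 23.8%, and the TATA box in 3 of 8 (Chil3, Mmp8 and Cd177), against 13.6%. Relative to the start used, the first base of the TATA match was at -40 in Cd177 but at -3 in Chil3 and Mmp8. Camp held none of the 3 in this window. These are matches of letters only.

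The antimicrobial and iron-binding proteins of the secondary granules had the highest levels. Ltf encodes lactoferrin, which binds iron. Its FPKM was 2612, 2728 and 3115 in control replicates 1 to 3, 5066, 4283 and 4110 in TBI, 3985, 6710 and 7039 in TBI+DEIX, and 5413, 2826 and 5001 in DEIX. Every TBI and TBI+DEIX library was above every control library, while DEIX replicate 2 lay among the controls.

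Lcn2 encodes lipocalin-2, which binds bacterial siderophores. It was at 5005, 5524 and 6478 FPKM in control, 8784, 7998 and 6937 in TBI, 8414, 13324 and 14922 in TBI+DEIX, and 11692, 6554 and 8364 in DEIX. The control libraries were the 3 lowest of the 12, and DEIX replicate 2 was just above them. Camp encodes the cathelicidin precursor, cleaved to an antimicrobial peptide. Camp had 5422, 6803 and 9090 FPKM in control, 6545, 7850 and 7034 in TBI, 3822, 9259 and 9760 in TBI+DEIX, and 6782, 5196 and 6013 in DEIX. For Camp the control libraries overlapped those of all other groups, and TBI+DEIX held both the lowest and the highest value.

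Fcnb encodes ficolin B, a pattern-recognition lectin that can start the complement cascade. Its FPKM was 236, 268 and 264 in control, 345, 377 and 294 in TBI, 106, 322 and 371 in TBI+DEIX, and 346, 198 and 273 in DEIX. TBI lay wholly above control, and TBI+DEIX replicate 1 was far below all others. Chil3 encodes a chitinase-like lectin that macrophages and monocytes can also make. It was at 2205, 2287 and 2460 FPKM in control, 3240, 3049 and 2750 in TBI, 5166, 3704 and 3330 in TBI+DEIX, and 4822, 3104 and 3354 in DEIX. Here TBI+DEIX replicate 1 was the highest library of all, and the 3 controls were the lowest.

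The metalloproteases degrade matrix. Mmp8, neutrophil collagenase, is a secondary granule protein and was at 717, 695 and 706 FPKM in control, 1022, 807 and 696 in TBI, 584, 1749 and 1534 in TBI+DEIX, and 1220, 947 and 1226 in DEIX. Mmp9, the gelatinase that defines tertiary granules, was at 663, 690 and 725 FPKM in control, 1061, 758 and 772 in TBI, 1157, 1612 and 1610 in TBI+DEIX, and 1057, 872 and 1253 in DEIX. The 2 proteases parted in TBI+DEIX replicate 1, which had the lowest Mmp8 of all libraries but an Mmp9 level above every control and TBI library.

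The surface and plasma-type proteins were the most even across TBI+DEIX. Cd177, a glycolipid-anchored surface protein kept in secondary granules, was at 536, 547 and 630 FPKM in control, 1008, 846 and 808 in TBI, 1311, 1354 and 1552 in TBI+DEIX, and 1249, 730 and 1069 in DEIX. Itgb2l, an integrin beta chain relative found on neutrophils, was at 144, 148 and 152 FPKM in control, 239, 215 and 198 in TBI, 272, 287 and 319 in TBI+DEIX, and 211, 192 and 232 in DEIX. Hp, haptoglobin, which binds free haemoglobin, was at 552, 596 and 722 FPKM in control, 962, 801 and 662 in TBI, 1141, 1389 and 1556 in TBI+DEIX, and 1497, 968 and 1061 in DEIX. For Cd177 and Itgb2l the 3 TBI+DEIX libraries were above all 9 others.

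**Figure D1:**
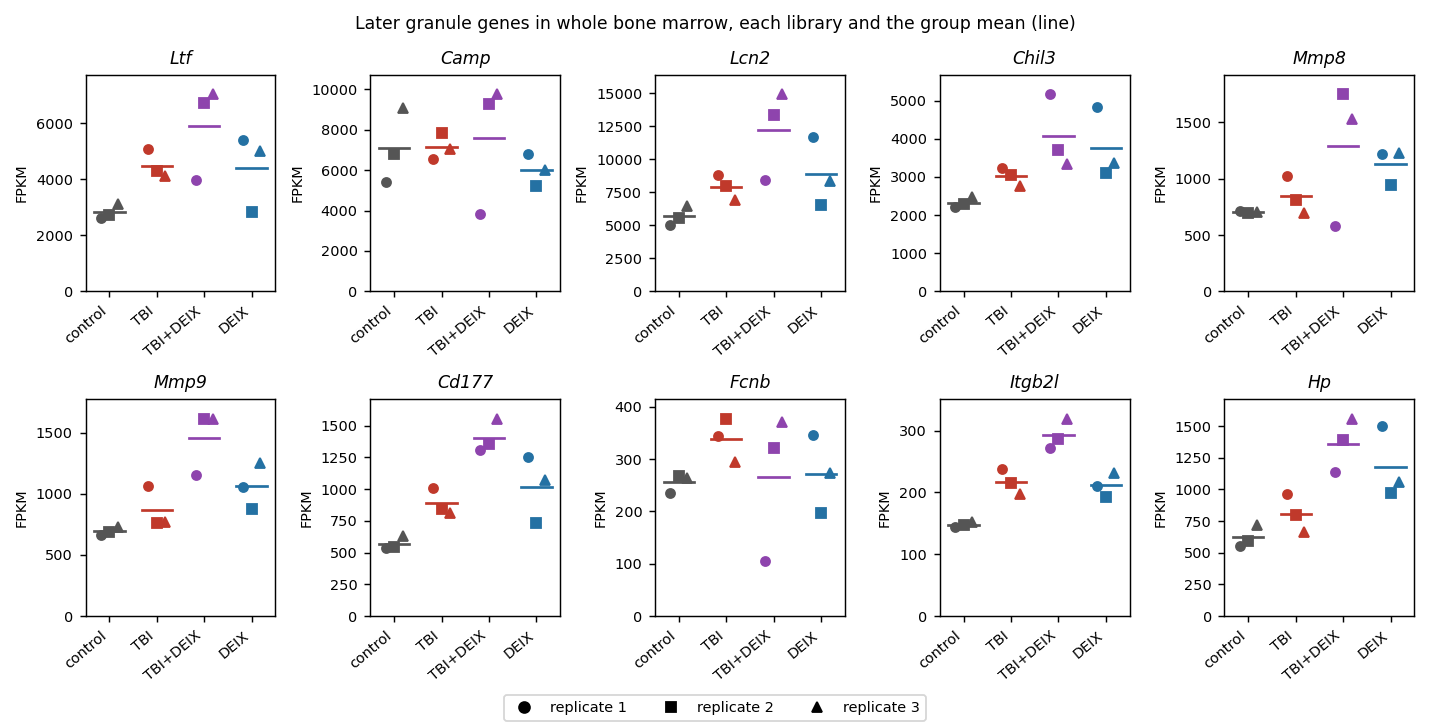
FPKM of the 10 later granule genes (vertical axis from 0, one panel a gene) in each library of control, TBI, TBI+DEIX and DEIX, with the symbol giving the replicate number and the line the group mean of 3 libraries. The purple circle, TBI+DEIX replicate 1, is the lowest point for Camp (3822), Mmp8 (584) and Fcnb (106) and the highest for Chil3 (5166).

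By group mean, control was lowest for 9 of the 10 members and TBI+DEIX highest for 9. The exceptions were Camp, lowest in DEIX, and Fcnb, highest in TBI. The order of the middle groups is not firm: TBI and DEIX libraries overlapped for 9 of 10 members (all but Hp, higher in DEIX), and TBI+DEIX and DEIX for 8 (all but Cd177 and Itgb2l, higher in TBI+DEIX). Those pairs of groups were not tested.

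TBI+DEIX against control sets both treatments beside neither, and no vehicle is stated for the control mice. Of the 10 members, 7 rose and 0 fell: Cd177, Hp, Lcn2, Mmp9, Ltf, Itgb2l and Chil3, at a limma adjusted p under 0.05 over all genes tested, which is what called means here. The same test called 16.9% of all tested genes higher. These 7 were also the ones whose libraries did not overlap, which held in the higher direction for 23.9% of tested genes. Cd177 averaged 571 ± 51.5 FPKM (SD, n = 3) in control and 1406 ± 129 in TBI+DEIX, a difference of 1.30 on the log2 scale (SE 0.20, limma adjusted p 0.00122). Hp averaged 624 ± 88.3 and 1362 ± 209 FPKM, a log2 difference of 1.12 (SE 0.22, limma adjusted p 0.0037). Changes of the other 5 were 1.07 for Lcn2, 1.06 for Mmp9, 1.03 for Ltf, 0.98 for Itgb2l and 0.79 for Chil3, with limma adjusted p of 0.044, 0.00363, 0.0354, 0.000319 and 0.0394.

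Mmp8 differed from control by 0.72 (SE 0.35, limma adjusted p 0.139), Camp by 0.01 (SE 0.40, adjusted p 0.983) and Fcnb by -0.13 (SE 0.39, adjusted p 0.825), and none of the 3 was called. Camp was below control, by -0.11 to -0.01, under all 3 other scalings. The median of the 10 changes was 1.00, beside 0.02 over all genes tested. Cd177, Hp, Mmp9 and Itgb2l stayed called in all 23 alternative fits, with a limma adjusted p of at most 0.0203. On the TPM scale, which moved the median of all genes by -0.122, the members' median was 0.88 and 6 were called. That scale called 16.4% of all genes in either direction, and 30.6% of the genes called were higher. Ltf, Lcn2 and Chil3 lost the call in 9, 13 and 13 of the 23, including the fit on these 6 libraries alone, where 4 members were called, beside 11% of genes higher.

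With TBI+DEIX replicate 1 left out, 8 members were called higher and 0 lower, beside 23.2% of all genes higher, and the median was 1.22. Mmp8 was then called, at 1.21 (limma adjusted p 0.00056), and Fcnb and Camp were at 0.43 and 0.45, not called (adjusted p 0.108 and 0.147). That library held the lowest Mmp8, Fcnb and Camp of all libraries, so leaving it out could only raise these changes.

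**Figure D2:**
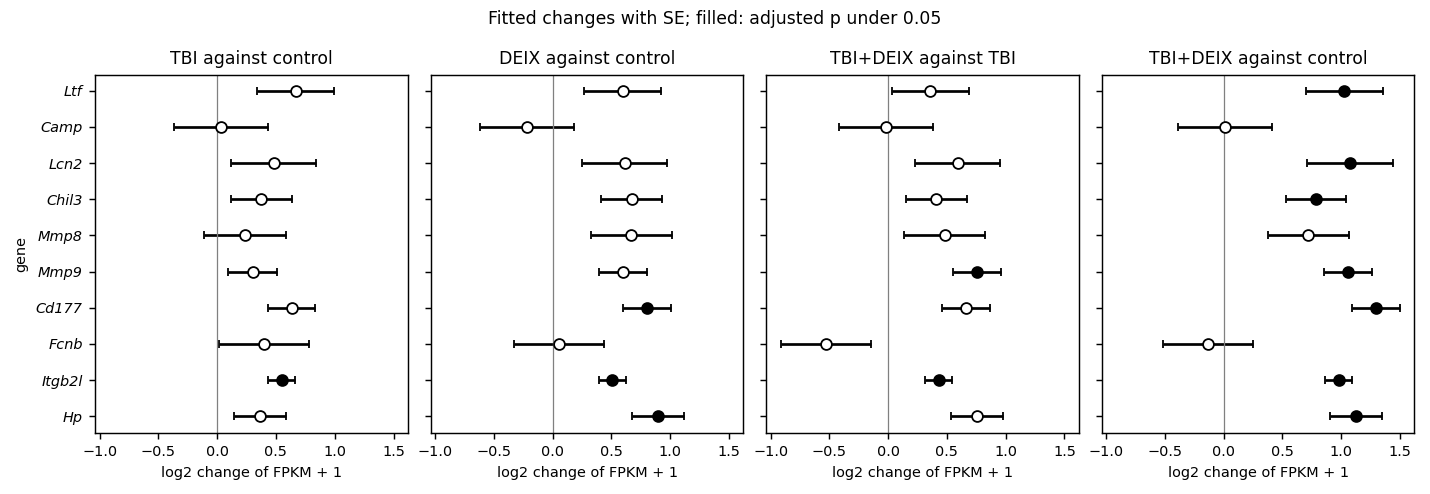
Fitted log2 change of FPKM + 1 (horizontal axis, bars are 1 SE) of the 10 genes in 4 comparisons of 3 against 3 libraries, with filled points for a limma adjusted p under 0.05. Filled points number 1, 3, 2 and 7 from left to right, and Camp and Fcnb are open in all 4 panels.

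TBI against control sets irradiated mice given oil beside unirradiated mice with no stated vehicle. Itgb2l rose: it averaged 148 ± 4.06 FPKM (SD, n = 3) in control and 217 ± 20.3 in TBI, a log2 difference of 0.55 (SE 0.11, limma adjusted p 0.0236). It was the 1 member called, beside 0.891% of all tested genes called higher, and 0 members were called lower. All 10 fitted changes were above 0, from 0.04 for Camp to 0.67 for Ltf, with a median of 0.39 beside 0.05 over all genes. Libraries did not overlap for 7 members (Ltf, Lcn2, Chil3, Mmp9, Cd177, Fcnb and Itgb2l), all higher, against 22% of tested genes. Cd177 differed by 0.63 (SE 0.20) and Ltf by 0.67 (SE 0.33) at limma adjusted p of 0.126 and 0.312. The call of Itgb2l was lost without any 1 of the 3 control libraries, without TBI replicate 1 or 2, and on the TPM scale (adjusted p over its alternatives from 7.61e-08 to 0.158). With only these 6 libraries in the fit, 3 members were called, beside 5.11% of genes higher. Without TBI+DEIX replicate 1 in the shared fit, 2 members were called higher, Itgb2l and Cd177, beside 4.98% of genes.

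DEIX against control sets unirradiated mice given DEIX beside unirradiated mice with no stated vehicle. A difference due to DEIX and one due to dosing cannot be told apart here. Hp, Cd177 and Itgb2l rose, 3 of 10 members, with 0 called lower, beside 4.46% of all tested genes called higher. Hp averaged 1175 ± 282 FPKM (SD, n = 3) in DEIX, a log2 difference of 0.90 (SE 0.22, limma adjusted p 0.0348). Cd177 changed by 0.80 (SE 0.20, adjusted p 0.0402) and Itgb2l by 0.51 (SE 0.11, adjusted p 0.0275). The median of the 10 was 0.61, beside 0.02 over all genes. Libraries did not overlap for 7 members, all higher (Lcn2, Chil3, Mmp8, Mmp9, Cd177, Itgb2l and Hp), against 23.4% of tested genes. Camp was at -0.22 (SE 0.40, adjusted p 0.778).

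The calls in DEIX against control were lost in many fits, while the fitted changes stayed above 0: over the 23 alternatives Cd177 ran from 0.63 to 1.02, Hp from 0.71 to 1.02 and Itgb2l from 0.36 to 0.58. None of the 3 was called without DEIX replicate 1, DEIX replicate 3 or any 1 control library, or on the TPM scale, where by limma 2 members had an unadjusted p under 0.05 (in the 5 fits without a library, 4 or 5 did). With only these 6 libraries 5 members were called, beside 11% of genes higher. Without TBI+DEIX replicate 1 in the shared fit 6 were called higher (Hp, Cd177, Itgb2l, Mmp8, Mmp9 and Chil3), beside 13.3% of genes.

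TBI+DEIX against TBI asks what the treatment changed in irradiated mice. Mmp9 and Itgb2l rose, 2 of 10 members with 0 called lower, beside 4.7% of all tested genes called higher. Mmp9 averaged 864 ± 171 FPKM (SD, n = 3) in TBI and 1460 ± 262 in TBI+DEIX, a log2 difference of 0.76 (SE 0.21, limma adjusted p 0.0471). Itgb2l changed by 0.43 (SE 0.11, adjusted p 0.0447). Hp, at 0.76, and Cd177, at 0.67, had limma adjusted p of 0.0575 and 0.0657. Fcnb was at -0.53 (SE 0.39, adjusted p 0.409). Libraries did not overlap for 5 members (Chil3, Mmp9, Cd177, Itgb2l and Hp), all higher, against 14.5% of tested genes, and the median of the 10 was 0.46 beside 0.00 over all genes.

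With only these 6 libraries in the fit, limma called 0 members and 0 genes, while 4 members and 2022 genes had an unadjusted p under 0.05. Both calls were also lost on the TPM scale and with the replicate number added to the fit as a block. They were lost too when any 1 control library was left out, or replicate 2 or 3 of either irradiated group, or replicate 1 or 3 of DEIX. Leaving out TBI+DEIX replicate 1 instead, 6 members were called higher (Mmp8, Mmp9, Hp, Lcn2, Cd177 and Itgb2l) and 0 lower, beside 16.3% of genes, and the median was 0.67. Mmp8 was then at 0.98 (limma adjusted p 0.00611), up from 0.48 with that library. On those 5 libraries alone 7 were called, beside 12% of genes higher.

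The interaction, the DEIX difference in irradiated mice minus that in unirradiated mice, was called for 0 of 10 members, beside 0.2% of genes (22). By limma 0 members had an unadjusted p under 0.05. The values ran from -0.58 (SE 0.54) for Fcnb to 0.20 (SE 0.57) for Camp, and the SEs of the 10 from 0.16 for Itgb2l to 0.57 for Camp. The comparisons above share control or TBI libraries, so their values are not independent of each other.

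The ratio of 2 granule genes inside a library is not altered by any scaling of libraries, since both values come from the same library. These ratios were chosen after the values were seen and are a description with no test. Camp over Ltf was 2.08, 2.49 and 2.92 in control, 1.29, 1.83 and 1.71 in TBI, 0.959, 1.38 and 1.39 in TBI+DEIX, and 1.25, 1.84 and 1.20 in DEIX. Camp over Cd177 was 10.1, 12.4 and 14.4 in control, 6.49, 9.28 and 8.70 in TBI, 2.92, 6.84 and 6.29 in TBI+DEIX, and 5.43, 7.12 and 5.62 in DEIX. For both ratios all 9 libraries of the other groups lay below all 3 controls. Camp over Chil3 did not show this order: it was 2.46, 2.97 and 3.70 in control, 2.02, 2.57 and 2.56 in TBI, 0.740, 2.50 and 2.93 in TBI+DEIX, and 1.41, 1.67 and 1.79 in DEIX, so that 4 libraries of the irradiated groups lay among the controls.

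Fcnb over Cd177 was 0.440, 0.489 and 0.419 in control, 0.342, 0.445 and 0.364 in TBI, 0.0807, 0.238 and 0.239 in TBI+DEIX, and 0.277, 0.271 and 0.255 in DEIX. The 6 libraries of mice given DEIX lay below the 6 others for this ratio, with or without TBI+DEIX replicate 1. The ratio of the collagenase Mmp8 to the gelatinase Mmp9 showed no such order: it was between 0.902 and 1.15 in 11 libraries and 0.505 in TBI+DEIX replicate 1.

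**Figure D3:**
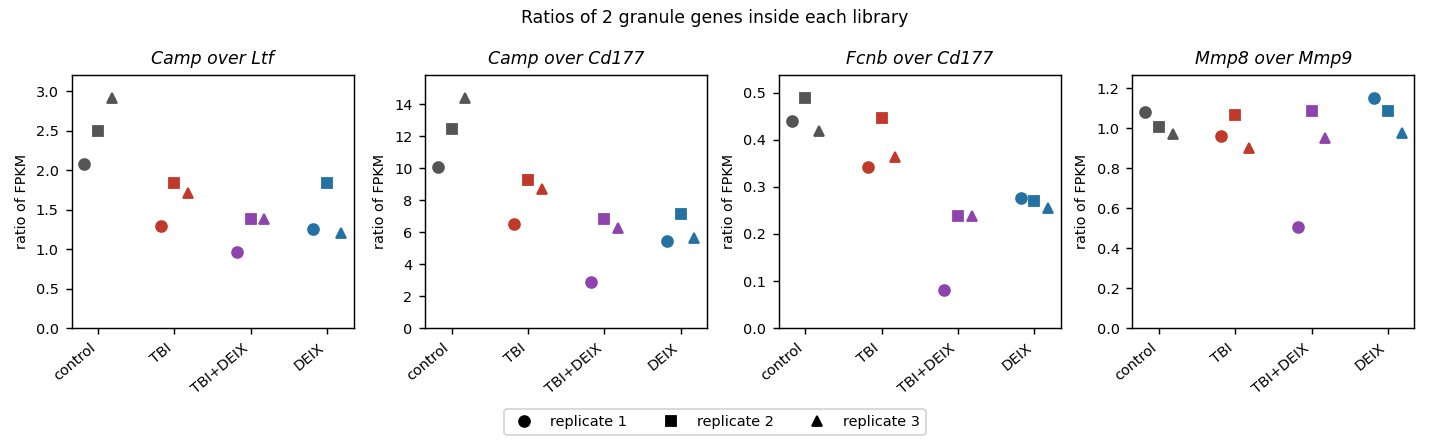
Ratio of the FPKM of 2 granule genes inside each library (vertical axes from 0), with the symbol giving the replicate number. Camp over Ltf and Camp over Cd177 are highest in the 3 control libraries, and Mmp8 over Mmp9 departs from about 1 only in TBI+DEIX replicate 1, at 0.505.

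TBI+DEIX replicate 1 held a different mix of granule transcripts from replicates 2 and 3. Its level over their mean was 0.305 for Fcnb, 0.356 for Mmp8 and 0.402 for Camp, 0.580 and 0.596 for Ltf and Lcn2, 0.718 and 0.775 for Mmp9 and Hp, and 0.899 and 0.902 for Itgb2l and Cd177. Chil3 was higher in it, at 1.47. With 1 library this has no replicate check.

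Other neutrophil genes stood apart in that library too, but unevenly. In the list of 25 other later granule and mature neutrophil genes, Orm1 and Lrg1 were higher in it, at 1.14 and 1.21 of the mean of replicates 2 and 3. Mmp25, Itgb2 and Ltb4r1 were at 0.904, 0.835 and 0.817, and Ly6g, Lyz2 and Retnlg at 0.0754, 0.0811 and 0.135. The genes named here from that list were chosen after their values were seen. Ly6g, a surface marker of mouse neutrophils, was at 57.0 FPKM there, against 787 and 724 in replicates 2 and 3. Lyz2, lysozyme, was at 919 against 11441 and 11208, and Retnlg, a resistin-like gene of mature neutrophils, at 2148 against 18070 and 13839. Mpo, the primary granule peroxidase of promyelocytes, went the other way, at 1547 against 651 and 834 FPKM. The list of 10 primary granule genes did so only in part: 6 of 10 were above the mean of replicates 2 and 3 and 4 below, and its sum was 4186 FPKM against 3062 and 3929. Cebpe was at 95.1 FPKM against 219 and 271, its lowest value of the 12. It had the lowest sums of all 12 libraries for the erythroid (312 FPKM), B lineage (6.95), monocyte and macrophage (350), T and NK (53.1), megakaryocyte and platelet (22.6) and eosinophil (89.2) markers.

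**Figure D4:**
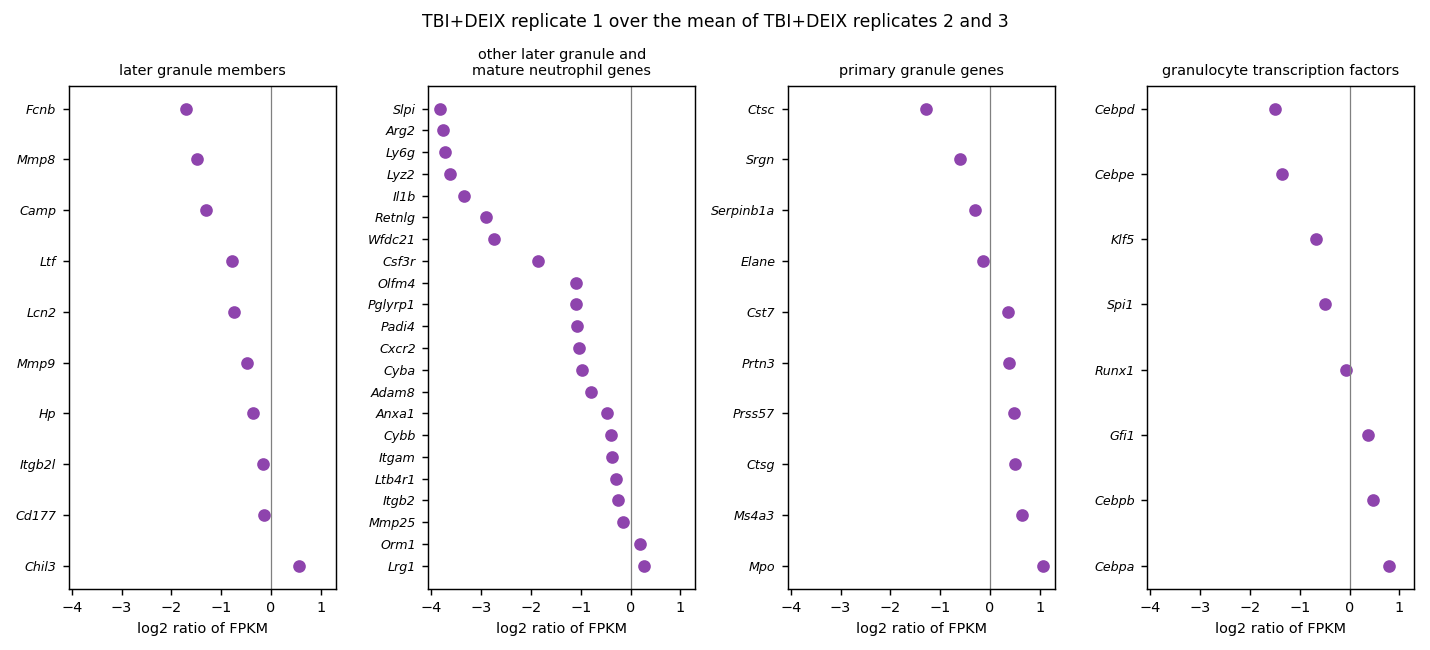
Log2 ratio of the FPKM in TBI+DEIX replicate 1 to the mean of TBI+DEIX replicates 2 and 3 (horizontal axis), for the members and 3 other neutrophil lists, without the 3 genes that have failed estimates. Among the members only Chil3 lies to the right of 0. Of the other genes, Ly6g, Lyz2 and Retnlg lie far to the left, Orm1 and Lrg1 just to the right, and Mpo, at a ratio of 2.08, to the right.

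Across the 12 libraries the members' log2 levels moved together in part. Pearson's r over the 45 pairs had a median of 0.72, from -0.28 for Camp with Chil3 to 0.95 for Cd177 with Itgb2l. Leaving out TBI+DEIX replicate 1, the median was 0.84 and the lowest was 0.17, again Camp with Chil3. Ltf with Lcn2 was at 0.953 with that library and 0.955 without it, and Camp with Cd177 at 0.13 and 0.47. The libraries share groups, depth and composition, so these values only describe them.

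The 5 genes whose log2 level was most like the members' mean profile over the 12 libraries, among 8326 genes, were Pgd, Ubtd1, Arhgap4, Ywhab and Hk3, with r between 0.983 and 0.988. Pgd, an enzyme of the pentose phosphate pathway, went from a mean of 352 FPKM in control to 455 in TBI, 522 in DEIX and 610 in TBI+DEIX. Hk3, a hexokinase of myeloid cells, went from 125 to 157, 177 and 209 FPKM in the same order.

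The other later granule and mature neutrophil genes were taken as a list of 25. In TBI+DEIX against control 11 of 25 rose and 0 fell, beside 16.9% of all genes called higher, with a median change of 0.80. Lrg1, a secreted glycoprotein of neutrophil granules, had a log2 change of 2.26 (SE 0.26, limma adjusted p 0.000316). Mmp25, a membrane-bound neutrophil metalloprotease, was at 1.43 (SE 0.17, adjusted p 0.000312), and the integrin chains Itgam and Itgb2 at 1.06 and 0.94 (adjusted p 0.00172 and 0.000719). In DEIX against control 6 of 25 rose (4.46% of all genes), in TBI+DEIX against TBI 4 rose (4.7% of all genes) and in TBI against control 0 were called (8 with an unadjusted p under 0.05 by limma), and 0 fell in any of these. Adam8, Mmp25, Lrg1 and Itgb2 were called in both comparisons of DEIX with its own control group. When TBI+DEIX replicate 1 was left out, the counts of rises were 21 for TBI+DEIX against control, 20 for TBI+DEIX against TBI, 12 for DEIX against control and 6 for TBI against control, with 1 fall in each of the last 2 (8.5% and 7.24% of all genes called lower). The shares of all genes called higher were then 23.2%, 16.3%, 13.3% and 4.98% in the same order.

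Of the 10 genes listed as primary granule genes, few were called. Primary granules are made before those of the members, but whether each listed gene is made only then was not tested. The shares of all genes in TBI+DEIX against control were 16.9% higher and 13.1% lower. In TBI+DEIX against control Serpinb1a, a protease inhibitor, rose by 1.01 (limma adjusted p 0.00716) and Elane, neutrophil elastase, fell by 0.94 (adjusted p 0.0194), with a median over the list of -0.12. The other 3 comparisons called 0 of the 10 by limma, with 0 to 2 at an unadjusted p under 0.05, and medians of -0.38 in TBI against control, 0.21 in DEIX against control and 0.14 in TBI+DEIX against TBI. In the fit without TBI+DEIX replicate 1, 1 rose and 3 fell in TBI+DEIX against control (23.2% of all genes higher and 15.4% lower), 2 rose in DEIX against control (13.3% higher) and 1 rose in TBI+DEIX against TBI (16.3% higher). A difference between the lists was not tested.

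Of 8 granulocyte transcription factors, Spi1, which encodes PU.1, Cebpb and Klf5 rose in TBI+DEIX against control, by 0.71, 0.60 and 0.63 (limma adjusted p 0.0106, 0.0319 and 0.041). Spi1 also rose in TBI+DEIX against TBI, by 0.68 (adjusted p 0.0381). The shares of all genes called higher were 16.9% and 4.7%. With TBI+DEIX replicate 1 left out, 4 of the 8 rose and 1 fell in TBI+DEIX against control (23.2% of all genes higher and 15.4% lower), 2 rose and 1 fell in TBI+DEIX against TBI (16.3% higher and 9.6% lower), and 3 rose in DEIX against control (13.3% higher). Cebpe was not called in any comparison. It was at 113, 134 and 162 FPKM in control, 187, 183 and 175 in TBI, 95.1, 219 and 271 in TBI+DEIX, and 196, 102 and 164 in DEIX. Its lowest values fell in TBI+DEIX replicate 1 and DEIX replicate 2.

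Markers of other marrow cells differed between the same groups. The 10 B lineage markers summed to 395 to 476 FPKM in the control libraries, 29.5 to 359 in TBI, 6.95 to 181 in TBI+DEIX and 61.6 to 97.5 in DEIX, and 8 of 10 fell in TBI+DEIX against control, beside 13.1% of all genes (7 without TBI+DEIX replicate 1, beside 15.4%). In DEIX against control 2 of the 10 fell, beside 2.71% of all genes, and without TBI+DEIX replicate 1 all 10 did, beside 8.5%. In TBI against control 2 fell, beside 3.11%, and 3 without that library, beside 7.24%. The 10 erythroid markers summed to 4020 to 6136 FPKM in control, 2272 to 9604 in TBI, 312 to 2044 in TBI+DEIX and 1637 to 9415 in DEIX, with 8 of 10 fallen in TBI+DEIX against control (2 without that library). In TBI+DEIX against TBI 3 of 10 erythroid markers fell, beside 3.43% of all genes (4 without that library, beside 9.6%). The highest erythroid sums were in TBI replicate 1, which had the highest members' sum of its group, and in DEIX replicate 2, which had the lowest of its group. The 12 monocyte and macrophage markers summed to 570 to 660 FPKM in control, 404 to 688 in TBI, 350 to 542 in TBI+DEIX and 922 to 1014 in DEIX. Single genes of that list went opposite ways: in DEIX against control Vcan, Fn1 and F13a1 rose, by 3.67, 1.17 and 0.98, and the macrophage complement genes C1qa and C1qb fell by 1.66 and 1.46 on the log2 scale, beside 4.46% of all genes called higher and 2.71% lower. In TBI+DEIX against control 1 of the 12 rose and 3 fell, beside 16.9% of all genes higher and 13.1% lower. Without TBI+DEIX replicate 1 the counts there were 1 and 4 (23.2% and 15.4% of all genes). In DEIX against control 5 of these 12 then rose and 4 fell (13.3% and 8.5%). Megakaryocyte and platelet markers (8 genes) summed to 108 to 166 FPKM in control, 24.4 to 44.9 in TBI, 22.6 to 39.4 in TBI+DEIX and 61.2 to 102 in DEIX. Of the 7 of them tested, 4 fell in TBI against control, beside 3.11% of all genes, and 6 in TBI+DEIX against control. Without TBI+DEIX replicate 1 the counts were 6 and 6. The T and NK markers tested, 8 genes, summed to 147 to 182 FPKM in control, 94.6 to 136 in TBI, 53.1 to 141 in TBI+DEIX and 125 to 189 in DEIX, and 2 fell in TBI and 3 in TBI+DEIX against control. Leaving out TBI+DEIX replicate 1, of these 8 genes 7 fell in TBI, 4 in DEIX and 3 in TBI+DEIX against control, beside 7.24%, 8.5% and 15.4% of all genes, and 5 rose in TBI+DEIX against TBI, beside 16.3%. No marker of these 5 lists was at 0 in any library. Their part in the members' differences was not tested.

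The members' own sum was 18092 to 24342 FPKM in control, 24262 to 28272 in TBI, 25958 to 41992 in TBI+DEIX and 21588 to 34289 in DEIX. As a share of the summed FPKM without the 3 genes of failed estimates, it was 3.8% to 4.43% in control, 4.99% to 5.43% in TBI, 6.08% to 6.72% in TBI+DEIX and 4.19% to 6.19% in DEIX. By this share all 3 TBI and all 3 TBI+DEIX libraries were above the controls, TBI+DEIX replicate 1 included, and only DEIX replicate 2 overlapped them.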

How the data were processed

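RNA sequencing of whole marrow from 12 mouse samples was read from 1 table of FPKM values that the authors deposited, with 1 column a library, matched by library name. The submitters' processing notes name STAR 2.6, Cufflinks 2.2.1 and mm10, with no options or filters, and the labels' protocols give a directional MGI kit. All 21853 identifiers matched GENCODE vM21.

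FPKM holds no counts, so limma 3.58.1 in R 4.3.3 was fitted (lmFit, then eBayes with a trend) on log2(FPKM + 1), a scale that understates changes of low genes, with 4 group means over 12 libraries (8 residual degrees of freedom) and 10994 genes. Calls were made where the Benjamini-Hochberg adjusted p over all 10994 genes was under 0.05. Values of exactly 0 in 3 genes whose other values were at least 100 FPKM were set to missing. The script was tested on simulated data.

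All 10 members are named, and other neutrophil genes if called or among the 3 highest of their list. Most-like genes had a mean FPKM of at least 5. Members and lists were chosen with earlier results of these data known. Alternatives covered pseudocount, filter, groups in the fit, scaling, weights, failed values, replicate block and each library left out.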

Additional observations from a re-analysis of the deposited data

How the results depend on the processing

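Of the 10 members, 1 was called in TBI against control, 2 in TBI+DEIX against TBI, 3 in DEIX against control and 7 in TBI+DEIX against control, the order kept here, beside 4%, 8.13%, 7.17% and 30% of all genes called in either direction. It was 1, 1, 1 and 4 with no filter on low values (3.91%, 3.87%, 4.68% and 21.1% of genes), 3, 0, 5 and 4 with only the groups compared in the fit (12.9%, 0%, 18.8% and 19.8%), 1, 1, 3 and 6 with exact 0 kept as 0 (3.99%, 8.1%, 7.24% and 30%), and 0, 0, 0 and 6 on the TPM scale (2.3%, 1.56%, 2.62% and 16.4%). Array weights gave 9, 7, 8 and 9, beside 63.8%, 50.3%, 47.8% and 62.5% of all genes, from weights that stopped before converging. With only the groups compared and TBI+DEIX replicate 1 left out, an alternative chosen after seeing the data, it was 3, 7, 5 and 9 (12.9%, 16.9%, 18.8% and 45%). Over the fits that each leave out 1 library, the counts ran from 0 to 2, 0 to 6, 0 to 6 and 4 to 8. The interaction had 0 members called by limma in every fit run, with 0 at an unadjusted p under 0.05 except for 2 with array weights. In the fits that called 0 members in TBI against control, 2 or 3 had an unadjusted p under 0.05. Where limma called 0 members in TBI+DEIX against TBI, 4 had an unadjusted p under 0.05 (5 without TBI+DEIX replicate 3). The cause of these changes was not tested.

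Replicate numbers did not pair the samples: over 18 same-numbered pairs the correlation of deviations ran from -0.397 to 0.258, with 3 over 0.1. With a replicate block the members called were 1, 0, 1 and 4, in the same order (3.45%, 4.36%, 5.84% and 27.3% of genes), and 0 in the interaction.

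Genes called in all were 440, 894, 788 and 3299 in that order and 22 in the interaction. They ran from 149 to 1343, 5 to 2848, 139 to 2398, 2006 to 4238 and 4 to 333 with 1 library left out, and from 136 to 7018, 0 to 5533, 288 to 5251, 1798 to 6869 and 7 to 1150 in the other fits. The TPM scale moved the median of all genes by 0.00707, -0.129, -0.147 and -0.122. On it 9.49%, 32.6%, 19.1% and 30.6% of called genes were higher, against 22.3%, 57.8%, 62.2% and 56.2%, and the members' median was 0.39, 0.32, 0.455 and 0.88, against 0.39, 0.46, 0.61 and 1.00. Rescaling by the sum without failed genes gave 15.9%, 30%, 45.1% and 38.4%.

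In the 4 comparisons of groups, directions turned for Camp and Fcnb alone, neither called in the fit reported. Camp in TBI+DEIX against control was -0.11 on the TPM scale, -0.0742 rescaled without failed genes and -0.015 with median-of-ratios factors, and ran from -0.22 to 0.45 with 1 library left out. In TBI+DEIX against TBI it was 0.26 with array weights, 0.42 without TBI+DEIX replicate 1 and only the groups compared, and -0.26 to 0.42 with 1 library left out. Camp ran from -0.14 to 0.23 in TBI against control and from -0.0392 to 0.64 in the interaction. Fcnb in TBI+DEIX against control was 0.31 with array weights, 0.43 without TBI+DEIX replicate 1 and only the groups compared, and -0.47 to 0.43 with 1 library left out. In TBI+DEIX against TBI it was 0.0367 in that restricted fit and -0.86 to 0.0367 with 1 library left out, and in DEIX against control -0.10 on the TPM scale and -0.14 to 0.26 with 1 library left out. Over the 10 members' changes in these 4 comparisons and all alternatives, 759 kept their direction and side of the threshold, 95 lost a call, 45 gained one and 21 turned. Of the turned values 1 was also called, higher: Fcnb in TBI+DEIX against control, in 1 of 23 alternatives (limma adjusted p 0.0156). Interaction values were followed for Camp and Fcnb alone: Camp turned in 2 fits and Fcnb in 0.

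Read totals are unknown, so counting error has no interval here, and 3 libraries a group limit the precision.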
